A study of Bienertia sinuspersici with 9 samples.

Results

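A set of 18 of 11709 unigenes was higher in intermediate than in young leaves of Bienertia sinuspersici and then stayed near the intermediate level in mature leaves. A unigene is a transcript of the de novo Trinity assembly kept after redundancy removal. Membership was read from TPMTMM, a length-corrected abundance (TPM) scaled between libraries by trimmed mean of M values factors. A member had a mean in intermediate leaves at least 1.5 times the mean in young leaves, a mean in mature leaves between 0.83 and 1.2 times the mean in intermediate leaves, every intermediate library above every young library, and a mean over the 9 libraries of at least 10. All values that chose the members come from these libraries, so the rise, the level second step and the separation are descriptions and were not tested as findings. The members are 0.154% of the unigenes, and they come from 18 different Trinity genes.

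The libraries came from leaves of wild type plants, with no treatment named in the labels, at 3 stages with 3 biological replicates each: young leaves shorter than 0.3 cm, intermediate leaves longer than 0.3 and shorter than 0.7 cm, and mature leaves longer than 2 cm. Of mature leaves only the tip was taken, so the effects of stage and of leaf part on mature values cannot be told apart. Libraries held 23529432 to 34660184 clean read pairs, but without read counts in the tables the number of reads behind each unigene is unknown. Nothing in the sources tells which plants stand behind a replicate, so the spread given here is that between these libraries. The stages were described by 5 markers each of dividing cells (HTR12, TPX2, BARD1, CTF18 and KINUB) and of chlorenchyma (PEPC1, PPDK, NAD-ME2, PSAD2 and PORC). All 5 of dividing cells had their highest stage mean in young leaves and all 5 of chlorenchyma in mature leaves. The paper reports PEPC1, PPDK and NAD-ME2 as upregulated in mature leaves of these same libraries, so their part in this is no independent check. The summed chlorenchyma markers ranged from 4510 to 4560 TPMTMM in young, 7222 to 11467 in intermediate and 22635 to 23206 in mature libraries, and the summed markers of dividing cells from 85.8 to 105, 65.7 to 73.9 and 38.2 to 49.2 in the same order of stages. PEPC1 and PPDK had mature means of 9699 and 7031 TPMTMM, so the chlorenchyma sums largely follow these C4 photosynthesis genes. Markers of epidermis and cuticle summed to 393 to 483 TPMTMM in young, 469 to 494 in intermediate and 278 to 318 in mature libraries. These 5 markers differed in course, which the sum hides. The stage with the highest mean was intermediate for 3 of them, young for 1 and mature for 1. In whole leaf RNA a change in the share of a cell type and a change in RNA per cell cannot be told apart, and the part of this changing makeup in the members' values was not tested.

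Bienertia carries out C4 photosynthesis within single chlorenchyma cells. In C4 plants PEP carboxylase fixes carbon into a C4 acid, which is later decarboxylated beside Rubisco, and in Bienertia these steps are divided between a peripheral and a central compartment of the same cell with different chloroplasts. The compartments are absent from the smallest leaves and form while the leaf expands, so the intermediate stage falls within the period in which they are built.

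None of the 18 members is among the 209 unigenes of the table to which the sources used here give a name. Of these names, 14 come from the text of the paper and 195 from a shortened copy of its annotation. Members are 0.154% of all unigenes, so their absence among so few names says nothing about them and does not make them unannotated. They are therefore called by their assembly identifiers, and no function is assigned to any of them. The most abundant member and the member with the largest first step were picked by a rule on their values, and the other members described individually were singled out after their values had been seen.

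In TPMTMM few unigenes with a first step of this size were level at the second. Of the 428 unigenes that met the conditions on the first step and on the mean, 392 (91.6%) had a mature mean above 1.2 times the intermediate mean, 18 (4.21%) were level, and 18 (4.21%) had a mature mean below 0.83 times the intermediate mean. The median ratio of the first step was 1.62 in the level set, against 1.65 in the 392 above this band and 1.69 in the 18 below it. No level unigene reached a first step of 2, whereas 43 of the 392 (10.97%) and 3 of the 18 below the band did. These differences between the sets were not tested. The ratio of intermediate to young means ran from 1.51 to 1.98 among the members, and the ratio of mature to intermediate means from 0.833 to 1.197 with a median of 1.07. The mature mean was above the intermediate mean in 13 members and below it in 5.

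**Figure D1:**
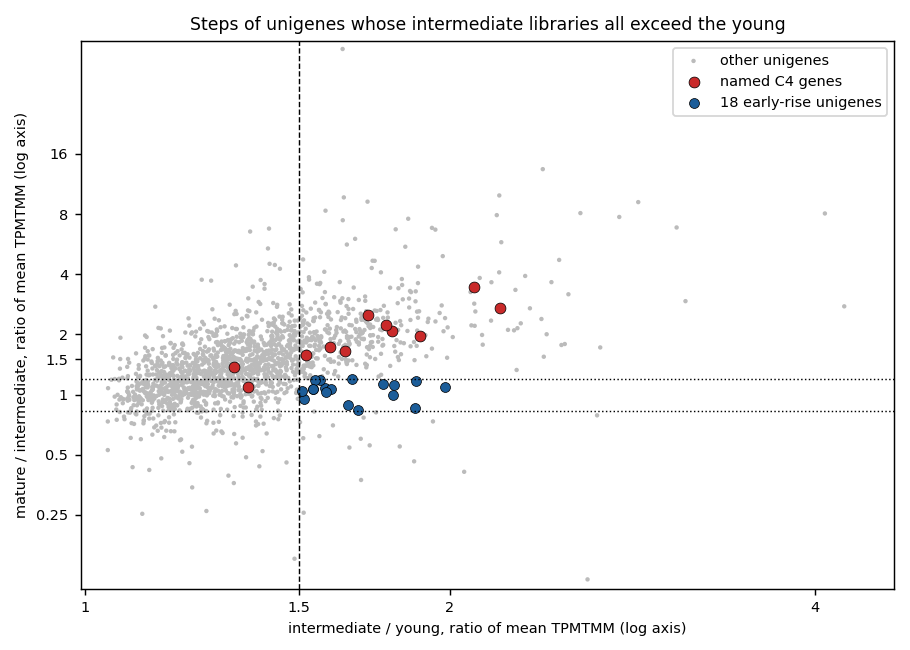
Ratio of mature to intermediate mean TPMTMM (vertical, log axis) against ratio of intermediate to young mean TPMTMM (horizontal, log axis) for every unigene with a mean of at least 10 whose intermediate libraries all exceed its young libraries, each point a unigene. The dashed line marks 1.5 and the dotted lines 0.83 and 1.2, and the 18 members fill the band between them on the right. The named C4 genes right of the dashed line all lie above the band, as do 392 of the 428 unigenes there.

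At least 1 member lay near each limit of the rule. The medians lay further inside, at 1.62 for the first step and 38.6 TPMTMM for the mean over the 9 libraries. The smallest first step among them was 1.51, and the nearest unigene outside, which met every other condition, had 1.497. At the second step the lowest member had 0.833 against 0.822 just outside, and the highest had 1.197 against 1.209 just outside. The lowest mean was 10.4, and the nearest below the limit was 9.31. The smallest ratio of the lowest intermediate to the highest young library was 1.06 among the members, and the nearest unigene that overlapped had 0.992. A further 477 unigenes failed only the condition on the size of the first step and 22 only the separation of the libraries.

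Levels of the members differed widely, with a median of the 9-library mean of 38.6 TPMTMM. Means lay between 10 and 50 TPMTMM in 10 members, between 50 and 200 in 6, and above 200 in 2. TPMTMM is a value per transcript length, so these levels can be set side by side, although RSEM divides reads between similar transcripts of a Trinity gene. The most abundant member, BS2141_c1_g1_i25, held 78.4% of the summed TPMTMM of all members and ranked 4 among the 11709 unigenes by mean.

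BS2141_c1_g1_i25 had 3028, 3234 and 3029 TPMTMM in young libraries 1 to 3, 4340, 4404 and 6689 in intermediate libraries and 6162, 6728 and 5580 in mature libraries. Intermediate replicate 3 stood far above the other intermediate libraries and within the range of the mature ones, while intermediate 1 and 2 lay between the young and the mature libraries. Its means were 3097 ± 118 at the young, 5144 ± 1338 at the intermediate and 6156 ± 574 at the mature stage (SD, n = 3 each), and its ratio of mature to intermediate means, 1.197, is the highest of the set. Without intermediate replicate 3, or without mature replicate 3, it did not meet the rule.

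BS63515_c0_g1_i1 had 257, 279 and 233 TPMTMM in young, 407, 363 and 420 in intermediate and 518, 460 and 429 in mature libraries. Every mature library was above every intermediate library, and this was the only member for which that held, against 21.8% of all unigenes. Its second step of 1.18 was therefore small but free of overlap. BS118_c0_g1_i12 had 79.7, 77.4 and 77.03 TPMTMM in young, 139, 138 and 135 in intermediate and 181, 138 and 145 in mature libraries. Its replicates agreed closely at the intermediate and young stages, with SDs of 2.39 and 1.44, and mature 1 stood above the other mature libraries. The gap between its lowest intermediate and highest young library, a ratio of 1.69, was the widest of the 18.

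The largest first step, 1.98, was that of BS11135_c0_g1_i1, with 20.6, 21.9 and 17.5 TPMTMM in young, 40.9, 41.8 and 35.96 in intermediate and 61.7, 33.2 and 33.9 in mature libraries. Mature replicate 1 was well above every other library, and mature 2 and 3 were below all intermediate libraries, so that the level mean of 43.0 ± 16.2 in mature leaves (SD, n = 3) joins unlike values. BS8687_c1_g2_i7 had 25.7, 27.8 and 36.8 TPMTMM in young, 55.1, 50.01 and 63.9 in intermediate and 62.9, 71.4 and 62.6 in mature libraries. Here intermediate 3 was among the mature values and intermediate 1 and 2 lay below them.

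BS408_c0_g1_i1 was level with little spread, at 19.7, 23.6 and 21.9 TPMTMM in young, 37.3, 33.6 and 32.97 in intermediate and 38.2, 34.5 and 37.8 in mature libraries. The intermediate and mature libraries interleaved, and the highest mature library was 1.11 times the lowest, the tightest of the set. BS1667_c0_g1_i20 had 10.3, 11.8 and 8.75 TPMTMM in young, 15.99, 16.4 and 22.98 in intermediate and 18.5, 19.7 and 16.97 in mature libraries. Its means in mature and intermediate leaves, 18.4 ± 1.37 and 18.5 ± 3.93 TPMTMM (SD, n = 3 each), were the closest of the set, and all 6 libraries were above the young ones.

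In 5 members the mature mean was below the intermediate mean. BS14889_c0_g1_i2 had 136, 146 and 150 TPMTMM in young, 268, 266 and 177 in intermediate and 233, 223 and 176 in mature libraries, where the third replicate of the intermediate and of the mature stage lay far below the others. BS12901_c0_g1_i1, the member with the lowest second step, had 14.6, 15.1 and 8.75 TPMTMM in young, 23.99, 23.6 and 16.98 in intermediate and 22.2, 17.2 and 14.4 in mature libraries. Its lowest mature library was below its highest young library. BS5462_c0_g1_i1 had 14.6, 13.5 and 13.1 TPMTMM in young, 22.2, 21.8 and 32.97 in intermediate and 13.6, 23.4 and 28.7 in mature libraries. Mature replicate 1 was within the young range while mature 3 was 2.12 times as high, and this was the only member whose mature libraries differed by 2-fold or more. The fourth, BS2894_c0_g1_i11, had 45.4, 42.1 and 46.4 TPMTMM in young, 72.9, 69.1 and 60.9 in intermediate and 64.1, 60.3 and 67.9 in mature libraries, with overlapping intermediate and mature values. The fifth is BS1667_c0_g1_i20, whose intermediate and mature means were almost equal.

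The 7 members not yet described had means of 10.4 to 191 TPMTMM. BS104789_c0_g1_i1 had the smallest first step, with 160, 162 and 98.9 TPMTMM in young, 240, 208 and 188 in intermediate and 258, 166 and 240 in mature libraries. Young replicate 3 was low, and mature 2 was close to the highest young libraries. BS30966_c0_g1_i6 had the narrowest separation, with 15.4, 15.1 and 10.5 TPMTMM in young, 27.5, 16.4 and 29.97 in intermediate and 38.2, 23.4 and 20.9 in mature libraries. BS10326_c1_g1_i1, the lowest member, had 7.71, 7.57 and 7.003 TPMTMM in young, 12.4, 10.9 and 10.99 in intermediate and 8.64, 11.1 and 16.97 in mature libraries. TPM was rounded to whole units before scaling, so for such low members neighbouring libraries differ by few steps. The other 4, BS5054_c0_g1_i3, BS3746_c0_g1_i2, BS3914_c0_g1_i6 and BS16965_c3_g1_i1, had first steps of 1.54 to 1.58 and second steps of 1.02 to 1.18.

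**Figure D2:**
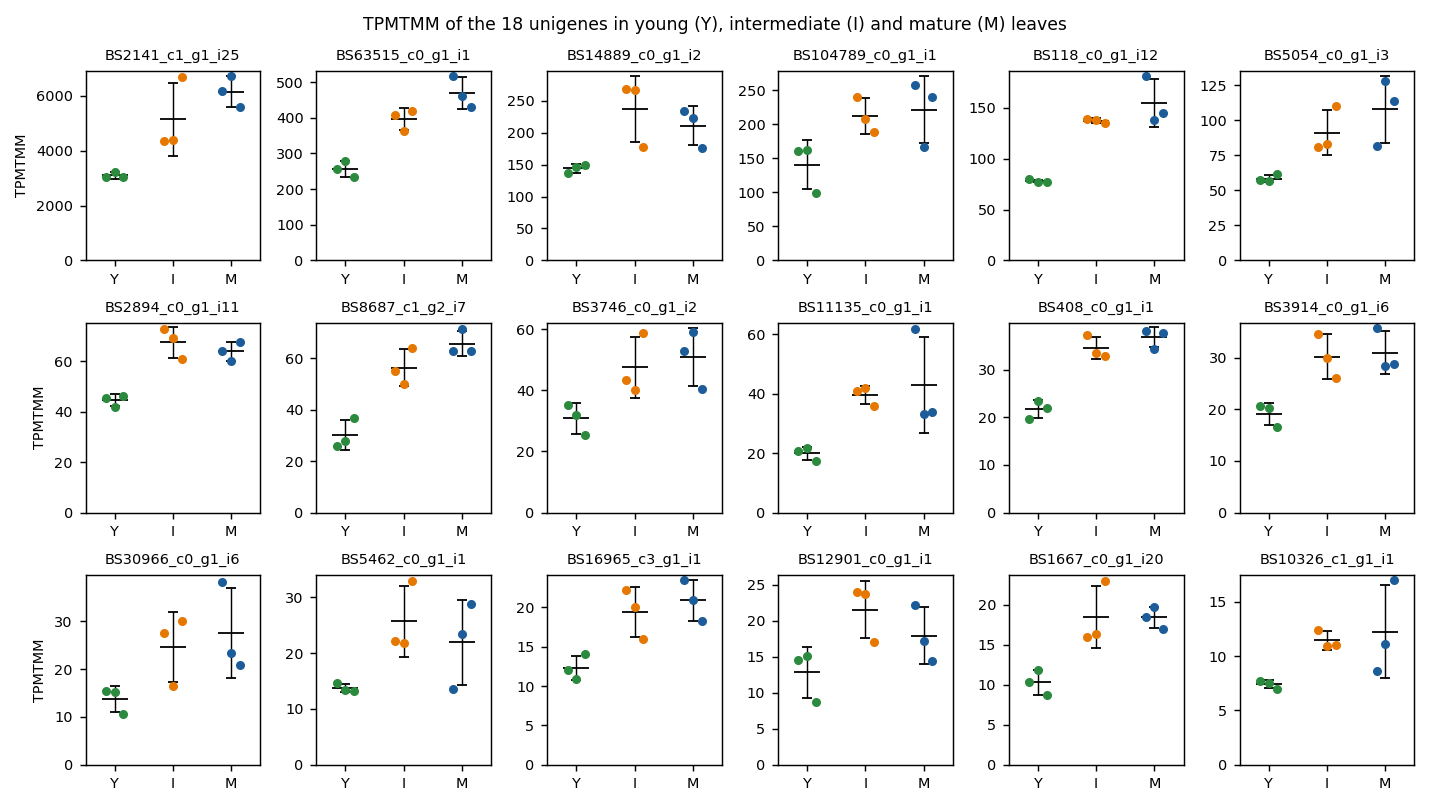
TPMTMM (vertical axes, each from 0) of the 18 members in young (Y), intermediate (I) and mature (M) leaves, ordered by mean, with a point per library in the order of replicates 1 to 3 and the mean ± SD in black (n = 3). In 17 members the mature libraries overlap the intermediate ones, and in BS63515_c0_g1_i1 every mature library lies above them.

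Intermediate leaves were set against young leaves by limma-trend on log2(TPMTMM + 1), fitted on all 11709 unigenes with Benjamini-Hochberg adjustment. The members' fitted changes ran from 0.56 to 0.95 on the log2 scale with a median of 0.67, and the median over all unigenes was 0.00. At an adjusted p under 0.05, 8 of the 18 were called higher and none lower, while 2.99% of all unigenes were called higher and 2.76% lower. All 18 had an unadjusted p under 0.05, and since the rule used this contrast nothing can be read from these counts. Same-numbered young and intermediate libraries deviated together, although numbers 1 and 2 correlated more with each other across the stages. With the number as a block, fitted on the 2 stages alone, 17 members were called higher, beside 12.9% of all unigenes. The call count moved with single libraries: it was 0 without intermediate replicate 1, 1 without young replicate 1 or 2, 3 without young replicate 3, 4 and 5 without intermediate replicates 3 and 2, and 5 without mature replicate 2. Without mature replicates 1 and 3 it was 12 and 8. Each of these fits has fewer libraries, which can change the calls of any unigene. The share of all unigenes called in them was not counted, so these counts show nothing particular to the members. The members' median change stayed at 0.65 to 0.72.

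Between mature and intermediate leaves none of the 18 was called by limma in either direction, and none had an unadjusted p under 0.05. Over all unigenes 16.1% were called higher and 15.9% lower. The rule kept only small second steps, so this count was fixed in large part by the choice of members. The fitted changes ran from -0.26 to 0.29 on the log2 scale with a median of 0.07. A missing call is not a measured equality: the 95% interval of the ratio of mature to intermediate leaves, computed on TPMTMM + 1, included 1 in all 18 but lay inside 0.83 to 1.2 in 0. It stayed within a 1.5-fold change in either direction in 13 members. The widest upper bound was 1.74, for BS30966_c0_g1_i6, and the lowest lower bound was 0.559, for BS5462_c0_g1_i1. Each interval thus also held changes past at least 1 of the limits in the rule.

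Between mature and young leaves 16 of the 18 were called higher and none lower by limma, beside 24.2% of all unigenes called higher and 23.9% lower, and the steps in the rule fix this direction. The exceptions were BS5462_c0_g1_i1 and BS12901_c0_g1_i1, in which at least 1 mature library lay within the young range. In the other 16 members every mature library was above every young library, which was so for 28% of all unigenes. The median fitted change was 0.73 on the log2 scale, against -0.02 over all unigenes.

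Whether the second step counts as level depends on the scaling between libraries. The factors, read from the lowest value of each column, averaged 0.858 ± 0.0171 at the young, 0.932 ± 0.0587 at the intermediate and 1.26 ± 0.0421 at the mature stage (SD, n = 3 each), so that scaling raised mature over intermediate values by a ratio of 1.35. In TPM without scaling all 18 members had a lower mean in mature than in intermediate leaves, with ratios of 0.590 to 0.897 and a median of 0.787, and 12 were under 0.83. The fitted median of members in TPM was -0.34 on the log2 scale, beside -0.43 for all unigenes, and 4 members were called lower, beside 48.2% of all unigenes. Since the scaling is a factor per library, the difference between these medians is nearly the same in TPMTMM and carries no support of its own for a level second step. Against young leaves, the mature mean in TPM was higher in 16 of the 18, but only 2 were called higher, beside 11.1% of all unigenes. The first step was also smaller in TPM, with member ratios of 1.39 to 1.87 and a median of 1.499. In TPM 214 unigenes met the conditions on the first step and on the mean, against 428 in TPMTMM. Among these 214 were only 3 members with a level second step and 4 with one below 0.83.

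Another 26 unigenes met the rule in TPM and not in TPMTMM, all with a TPMTMM ratio of mature to intermediate leaves above 1.2, and 3 members met it in both: BS2141_c1_g1_i25, BS118_c0_g1_i12 and BS8687_c1_g2_i7. With TPM scaled by the upper quartile of each library 10 members met the rule. The ratio of mature to intermediate means then ran from 0.760 to 1.14, with a median of 1.01. None of the 209 named unigenes met the rule in TPM, which only 29 of all 11709 did.

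**Figure D3:**
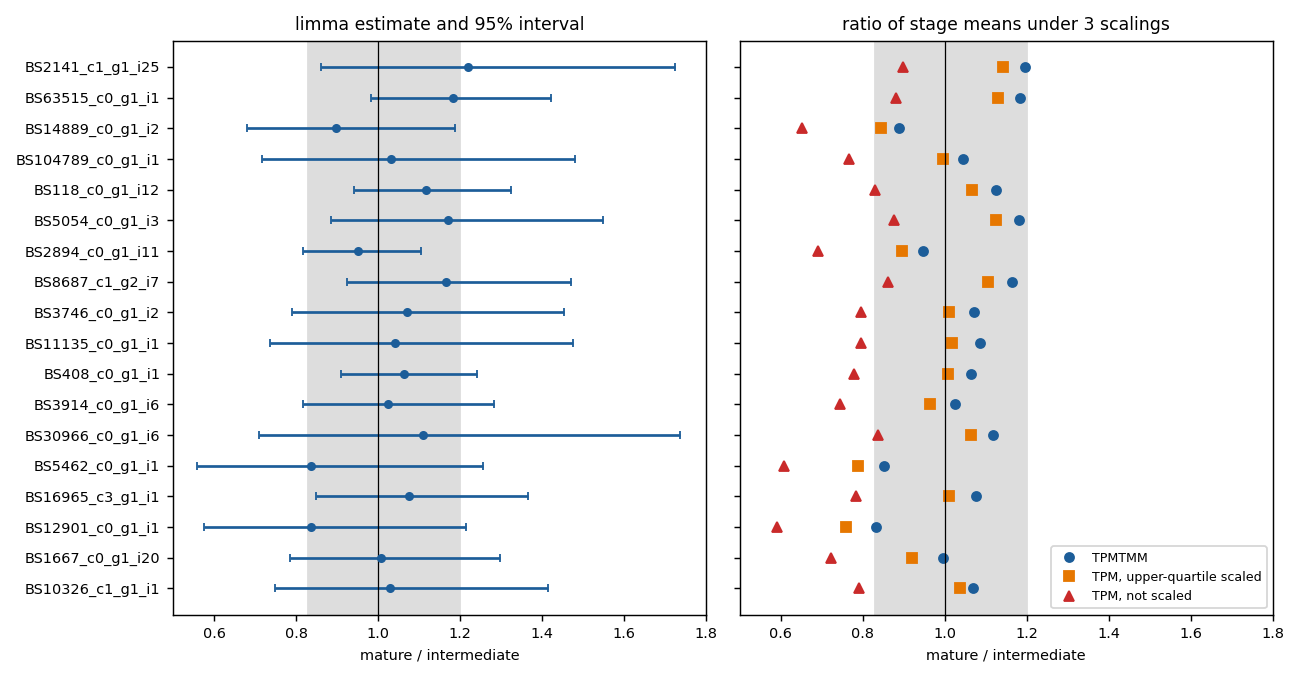
Ratio of mature to intermediate leaves for the 18 members: on the left the limma estimate on TPMTMM + 1 with its 95% interval, on the right the ratio of stage means in TPMTMM, in TPM scaled by the upper quartile and in TPM without scaling. The grey band spans 0.83 to 1.2, every interval on the left crosses 1, and every triangle for unscaled TPM on the right lies below 1.

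Membership also moved with single libraries. BS118_c0_g1_i12, BS408_c0_g1_i1 and BS1667_c0_g1_i20 met the rule without each of the 9 libraries in turn, and the other 15 lost it without at least 1 library. BS5462_c0_g1_i1 and BS10326_c1_g1_i1 kept it in 5 of the 9. Only BS118_c0_g1_i12 met the rule without each library and also in unscaled TPM, in upper-quartile TPM and in TPM times the factor without rounding.

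Replicates that stood apart differed between members. The rule used the same columns, so the counts are a description. Intermediate replicate 3 was the lowest intermediate library in 9 members and the highest in 8. Among all 8063 unigenes with a mean of at least 10 it was the lowest in 38.3% and the highest in 46.3%, and among the 392 with a second step above 1.2 it was the highest in 301 (76.8%). Mature replicate 1 was the highest mature library in 8 of the 9 members with a low intermediate 3, and in 2 of the 8 with a high intermediate 3. The same counts over the 8063 unigenes were 70.3% of those with a low and 23.8% of those with a high intermediate 3.

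In the 9 members with a low intermediate 3, this library was at a median of 0.838 times the mean of intermediate 1 and 2, and mature 1 at a median of 1.255 times the mean of mature 2 and 3. They were BS14889_c0_g1_i2, BS104789_c0_g1_i1, BS118_c0_g1_i12, BS2894_c0_g1_i11, BS11135_c0_g1_i1, BS408_c0_g1_i1, BS3914_c0_g1_i6, BS16965_c3_g1_i1 and BS12901_c0_g1_i1. In the 8 with a high intermediate 3 the medians were 1.39 and 1.01. The summed chlorenchyma markers were also most unequal among the intermediate libraries, and their part in these values was not tested. Which library was the highest of all 9 varied accordingly: mature 1 in 8 members, mature 2 in 4, intermediate 1 in 3, intermediate 3 in 2 and mature 3 in 1.

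**Figure D4:**
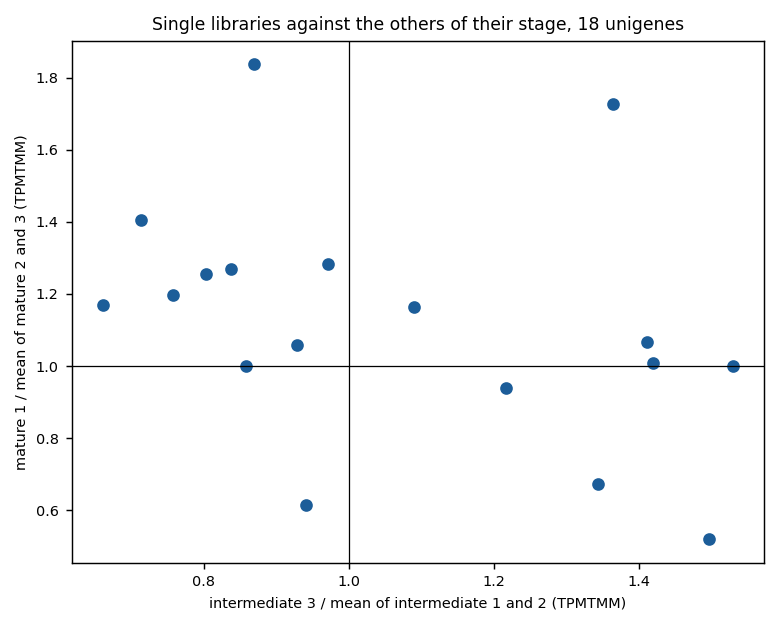
TPMTMM of mature replicate 1 over the mean of mature 2 and 3 (vertical) against intermediate replicate 3 over the mean of intermediate 1 and 2 (horizontal), each point 1 of the 18 members. Members with a low intermediate 3 lie left of the vertical line at 1, mostly above the horizontal line at 1, and those on the right spread to both sides of it.

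Within stages, the median coefficient of variation of the members was 10.1% for young, 15.3% for intermediate and 14.7% for mature leaves. Among all unigenes with a mean of at least 10 it was 8.81%, 10.5% and 13.7% in the same order of stages. The values of the members entered the rule, so these figures carry no test.

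For 6 of the 18 members the TPM table holds other unigenes of the same Trinity gene, 20 in all, with means of 1.15 to 36.9 TPM. The TPMTMM table holds 2 of these 20. In TPM their ratio of intermediate to young means had a median of 1.01, beside 0.891 over the 36027 unigenes with a mean of at least 1, and 3 of the 20 had a ratio of at least 1.5, beside 7.07%. The members were chosen for a large first step and these unigenes were not, so a smaller one among the 20 is fixed by the choice. RSEM also had to divide reads among them.

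BS2894_c0_g1_i11 is an example, singled out after its values had been seen. Its TPM ratio of intermediate to young leaves was 1.42, while that of BS2894_c0_g1_i8 was 0.878. The summed TPM of the 4 unigenes of this gene came to 90.4 ± 5.15 at the young, 105 ± 17.3 at the intermediate and 68.4 ± 4.04 at the mature stage (SD, n = 3 each), with overlapping young and intermediate libraries. The member's share of that sum came to 56.4% at the young, 68.8% at the intermediate and 73.0% at the mature stage.

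For the 5 unigenes of the BS8687_c1_g2 gene the sum came to 58.7 ± 10.6 TPM at the young, 94.9 ± 8.11 at the intermediate and 96.2 ± 9.11 at the mature stage (SD, n = 3 each). Every intermediate library lay above every young one, as with the member alone. BS8687_c1_g2_i2, another unigene of this gene, had TPMTMM ratios of 1.53 at the first and 2.69 at the second step, against 1.87 and 1.17 for the member BS8687_c1_g2_i7. BS3746_c0_g1_i1 had TPM ratios of 1.38 and 1.28 at the first and the second step, against 1.41 and 0.796 for the member BS3746_c0_g1_i2. In the BS1667_c0_g1 gene the member's share of the summed TPM came to 35.96% at the young, 50.2% at the intermediate and 48.3% at the mature stage. The summed ratios of intermediate to young TPM over the 6 genes ran from 1.16 to 1.62, each below the ratio of its member, which the choice of the member favours.

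None of the 77 entries of the 11 gene lists was a member, beside 0.154% of all unigenes. An absence among so few entries is therefore no result about these lists. Of the 12 C4 cycle enzymes and transporters, 9 met the conditions on the first step, and all 9 had a second step above the band. In the test of intermediate against young leaves 7 of these 12 passed as higher, beside 2.99% of all unigenes, and none as lower. In that of mature against intermediate leaves 10 passed as higher, beside 16.1%, and none as lower. Their median fitted changes were 0.73 and 0.89 on the log2 scale. Of the 6 photosystem and chlorophyll genes and the 8 other plastid proteins, 2 each met the first step and all 4 had a second step above the band. A second step above the band was found in 91.6% of all unigenes with that first step, so neither these 4 nor the 9 C4 genes stand out by it. The lists and their genes were chosen with results of these libraries known.

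In all, 922 unigenes met every condition except 1, of which 25 are named. The named ones depend on which names the sources give and are no sample of the 922. Of the 25, 14 were too high at the second step, 9 of them C4 genes, and 1 was too low. At the first step 9 fell short, and 1 had overlapping libraries. Just above the band were AT1G01320 with a ratio of mature to intermediate means of 1.21, PSB27-1 with 1.21 and CPX1 with 1.23. PSB27-1 is the photosystem II assembly and repair factor Psb27 in Arabidopsis, and it had 141 ± 4.89 TPMTMM at the young, 216 ± 52.2 at the intermediate and 261 ± 28.5 at the mature stage (SD, n = 3 each). CPX1, a coproporphyrinogen oxidase of tetrapyrrole synthesis in Arabidopsis, had 139 ± 5.51, 212 ± 29.1 and 261 ± 21.1 TPMTMM in the same order of stages. Both exceeded the limit by less than the relative spread of their intermediate libraries.

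C4 genes lay further off. PEPC1, the PEP carboxylase of the C4 cycle, had a second step of 3.44, and PPDK, which regenerates the PEP it uses, had 2.70. NAD-ME2, the decarboxylating malic enzyme, was at 1.96, and the triose phosphate translocator TPT at 1.72. The smallest second steps among the 9 C4 genes were 1.66 for the carbonic anhydrase CAb1 and 1.57 for UCP1.

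DTC, a mitochondrial dicarboxylate and tricarboxylate carrier, came nearest to the course of the members among the C4 cycle genes. It had 232 ± 20.99 TPMTMM at the young, 316 ± 20.5 at the intermediate and 342 ± 44.4 at the mature stage (SD, n = 3 each), with a first step of 1.36 that is under the limit and a second of 1.09. AT1G04420 was closer to the limit, with a first step of 1.47 and a second of 1.03. CLPP5, a subunit of the plastid Clp protease, had 1.38 and 1.18. NAC002, a transcription factor of stress responses in Arabidopsis, had steps of 1.54 and 1.02 but overlapping young and intermediate libraries, at 160 ± 50.2 TPMTMM in intermediate and 104 ± 28.6 in young leaves (SD, n = 3 each). ERF023, of the ethylene response factor family, was the named gene whose second step was below the band, with 22.5 ± 3.03 TPMTMM at the young, 34.1 ± 1.88 at the intermediate and 8.75 ± 3.12 at the mature stage (SD, n = 3 each).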

How the data were processed

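The authors trimmed reads of 9 leaf libraries with Trimmomatic, assembled them with Trinity, quantified transcripts with RSEM and removed redundant transcripts. For Trimmomatic and RSEM no version is given in the sources used here. They deposited TPM of 36907 unigenes and TPMTMM, TPM scaled by trimmed mean of M values factors, of 11709. For 11708 of these, the TPMTMM followed within 0.001 from the TPM value by rounding it to an integer, adding 1 and multiplying by a factor per library. Neither table holds counts, so no count test was run, and no counting interval can be given.

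Libraries were grouped by the stage in their labels. Members were found by the rule on TPMTMM, which used the contrasts of stages, and no chance test was made on them. The members, gene lists and alternatives were chosen with earlier results of these data known. Members the text was to describe were those with a name in the sources, and, since none had one, the highest mean and the largest first step; nearest non-members were named unigenes that missed 1 condition. Stages were compared by limma-trend (R 4.3.3, limma 3.58.1) on log2(TPMTMM + 1), with all 9 libraries in a common model over all 11709 unigenes. Benjamini-Hochberg adjustment was used with a threshold of 0.05. A run on simulated data used independent noise for each library, so it says nothing about libraries that deviate together. Ratios of means used Python 3.11.15, pandas 2.3.3 and numpy 2.4.6, and figures matplotlib 3.10.9. Same-numbered young and intermediate libraries deviated together from their stage means across unigenes, with correlations of 0.467, 0.445 and 0.696 for numbers 1, 2 and 3. Young 1 correlated more with intermediate 2 (0.508) and young 2 more with intermediate 1 (0.547). Deviations of the 3 libraries of a stage cancel out, so these correlations are not independent, and they do not tell number 1 from number 2. What a number shares is not stated in the sources, so the pairing is at most a hint from the data. On it the replicate number was also entered as a block when the 2 stages were fitted alone, an alternative chosen after seeing the data. Mature 2 correlated negatively with young 2 (-0.427) and intermediate 2 (-0.476). Mature 1 correlated positively with young 1 (0.474) and intermediate 1 (0.588), and mature 3 with young 3 (0.413) and intermediate 3 (0.441). As the signs differed between numbers, mature leaves were left out of the block fit of 2 stages. A block over all 9 libraries was fitted as a further alternative. Upper-quartile scaling divided TPM by the 75th percentile of the 11709 unigenes in each library.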

Additional observations from a re-analysis of the deposited data

How the results depend on the processing

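The number of unigenes that met the rule, 18 as reported, was 29 in TPM without scaling (3 of them members), 0 with a first step of at least 2, 211 with a lower limit on the first step, 9 with a second step from 0.9 to 1.1, 40 without the condition on separation, 31 without a minimum mean and 8 with a mean of at least 50. Leaving out 1 library gave 18 to 65, the highest without intermediate replicate 2, with 16 of the members among the 65. Without intermediate replicate 3 it was 63, with 10 of the members. With fewer young or intermediate libraries the condition on separation is easier to meet. Without a mature library, which leaves that condition as it was, the number was 18 to 27. What else moved the number was not tested. In TPM without scaling 172 of the 214 unigenes with the first step (80.4%) had a second step above 1.2, against 392 of 428 (91.6%). The share with a level second step was 13.6% in TPM, against 4.21%. Of the members' Trinity genes, 1 other unigene, against 2, had a mean of at least 10 TPMTMM, and the TPM table holds 20. Members called between intermediate and young leaves numbered 8 as reported, 17 with the replicate block when only these 2 stages were fitted, 9 with the replicate block over the 9 libraries, 5 in TPM, and 0 to 12 when 1 library was left out. For the last 3 of these settings the share of all unigenes called was not counted. Between mature and intermediate leaves 0 were called as reported and without each library in turn, and 4, all lower, in TPM. Between mature and young leaves 16 were called, against 2 in TPM and 11 to 15 without 1 library. The median change of members between intermediate and young leaves, 0.67 on the log2 scale, was 0.56 in TPM and 0.65 to 0.72 without 1 library. Between mature and intermediate leaves it was -0.34 in TPM, against 0.07, and 0.03 to 0.14 without 1 library. Between mature and young leaves it was 0.18 in TPM and 0.60 with upper-quartile scaling, against 0.73, and 0.72 to 0.80 without 1 library. Between mature and young leaves BS2894_c0_g1_i11 and BS14889_c0_g1_i2, higher in TPMTMM, had changes of -0.029 and -0.011 in TPM, and BS12901_c0_g1_i1, not called in TPMTMM, had -0.057, against 0.47. In TPM the median of all unigenes shifted by -0.12, -0.43 and -0.57 between these pairs of stages. The block changed no other call count by more than 1.5 times. Low members rest on few whole TPM steps, and 3 libraries per stage limit every interval.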
